A study of Homo sapiens with 6 samples.

Results

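The zinc finger genes of this comparison are the 30 genes, of 1630 in the table, whose symbols begin with ZNF, ZBTB, ZFP, ZSCAN or ZKSCAN and hold no hyphen. Of these, 28 carry a ZNF symbol, and the other 2 are ZBTB32 and ZSCAN31. No gene with a ZFP or ZKSCAN symbol has a row. The cells were U87MG, an established human glioblastoma line. RNA was sequenced from 3 libraries with a control short hairpin RNA (shControl; genotype NC) and 3 libraries with a hairpin against CREPT (shCREPT; genotype CREPT Knockdown). CREPT is the protein made from RPRD1B and associates with RNA polymerase II. The labels neither give the hairpin sequences nor say that each library is its own culture. The p-values therefore reflect differences among libraries that could be technical. For RPRD1B no row exists: its level was not analysed here, and these files give no check of the knockdown. As in any bulk sample, fewer cells of a type and less RNA per cell cannot be told apart.

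Most human zinc finger transcription factors hold a row of C2H2 fingers, each a small loop folded around a zinc ion that reads a few bases of DNA. Many carry a KRAB domain, which recruits the corepressor TRIM28 and a heterochromatin machinery and is best known for silencing transposable elements. Others carry a BTB domain, which pairs proteins and binds corepressors, or a SCAN domain, which pairs proteins. KRAB genes lie in tandem clusters, above all on chromosome 19, that grew by repeated duplication and so hold genes of closely related sequence.

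The listed zinc finger genes were mostly higher in shCREPT libraries. They are 4.97% of the 604 protein-coding genes annotated with such symbols, and the rest have no value here. The authors' deposited table marks 21 of the 30 up and 9 down, or 70% up and 30% down, beside 40.3% up and 59.7% down of all 1630 listed genes. Among ZNF genes 20 were marked up and 8 down. ZBTB32 was marked up and ZSCAN31 down. Every row of the table had been chosen by the authors for a difference between these same groups, so a call is nearly fixed for any row, and genes that did not change are not shown. Small changes are also absent: among the 30, the authors' log2 fold smallest in size was −1.04 (ZNF641). Sizes of change are therefore those of selected rows.

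Of the 21 genes marked up, 13 lay in 2 stretches of the genome, a grouping noticed after the values were seen. On chromosome 19, from 19900913 to 23147219 (GRCh38, GENCODE release 29), 9 zinc finger genes have a row: ZNF93, ZNF682, ZNF90, ZNF486, ZNF737, ZNF85, ZNF714, ZNF492 and ZNF730. All 9 were marked up. On chromosome 7, from 64045443 to 64930966, 4 have a row, ZNF727, ZNF680, ZNF107 and ZNF273, and all 4 were marked up. Each stretch was drawn from the first to the last of its zinc finger genes with a row. The annotation lists 27 protein-coding zinc finger genes in the chromosome 19 stretch and 8 in the chromosome 7 stretch. The 18 and 4 without a row have no value here. They are not among the genes the authors chose for a difference. Whether they were too low, unchanged or changed less is not known. Zinc finger genes without a row past these edges, such as ZNF91 on chromosome 19 and ZNF92 on chromosome 7, are not counted. The 2 other listed genes inside the chromosome 19 stretch, the pseudogene VN1R81P, which overlaps ZNF714, and a gene with no symbol, were also marked up. Outside both stretches the 17 remaining zinc finger genes were split, 8 up and 9 down. Elsewhere on chromosome 19 ZBTB32 was marked up, and ZNF177, ZNF846, ZNF528, ZNF415 and ZNF471 were marked down. Of the listed genes on chromosome 19 that are not zinc finger genes, 39 were up and 45 down, and on chromosome 7, 35 up and 45 down.

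**Figure D1:**
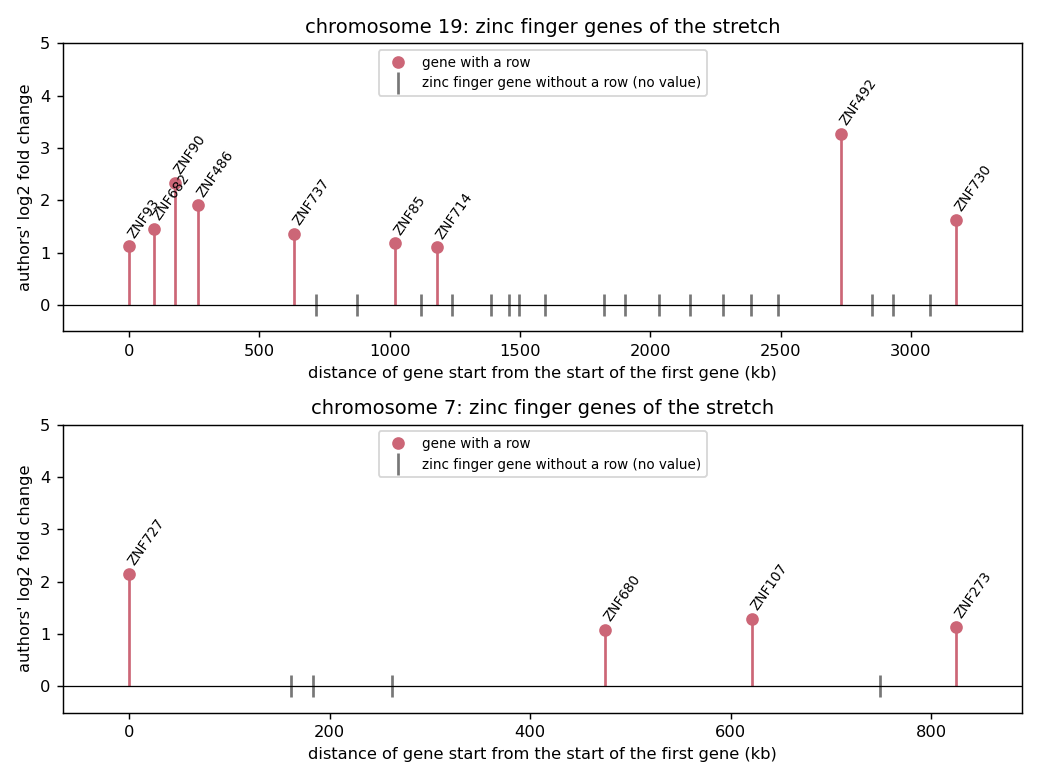
Zinc finger genes of the chromosome 19 stretch (top) and the chromosome 7 stretch (bottom) by distance of their start from that of the first gene (kb). Points are the log2 fold change in the authors' deposited table for the 9 and 4 genes with a row, all above 0; grey ticks are annotated zinc finger genes without a row, which have no value.

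The promoters of most genes in these stretches are alike in sequence, and 5 are shown to let the likeness be read: 3 from chromosome 19 and 2 from chromosome 7. Each is the 200 bases before the RefSeq start (GRCh38.p14), 5′ to 3′ on the gene's own strand. Capitals mark each CCAAT (the CCAAT box, a common promoter element) and the 12-letter stretch TCTGTCACTCAG. Of all runs of 12 letters it is the one found in most of the 13 genes of the 2 stretches (of 2 tied, the one in fewer genes overall), so it was chosen on these promoters.
ZNF486, chr19:20167014-20167213, plus strand: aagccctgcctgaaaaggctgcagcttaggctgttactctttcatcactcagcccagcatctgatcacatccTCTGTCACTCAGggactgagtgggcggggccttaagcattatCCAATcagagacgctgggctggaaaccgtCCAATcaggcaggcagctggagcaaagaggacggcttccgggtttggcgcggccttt
ZNF714, chr19:21082003-21082202, plus strand: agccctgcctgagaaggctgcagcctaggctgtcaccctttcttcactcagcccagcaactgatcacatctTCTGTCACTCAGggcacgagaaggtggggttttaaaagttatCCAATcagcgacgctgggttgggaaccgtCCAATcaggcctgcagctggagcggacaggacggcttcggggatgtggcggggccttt
ZNF85, chr19:20923051-20923250, plus strand: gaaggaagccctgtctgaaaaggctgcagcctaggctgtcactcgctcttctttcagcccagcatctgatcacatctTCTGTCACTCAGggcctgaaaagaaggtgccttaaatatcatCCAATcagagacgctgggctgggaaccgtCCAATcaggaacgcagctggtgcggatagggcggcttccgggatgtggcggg
ZNF107, chr7:64665933-64666132, plus strand: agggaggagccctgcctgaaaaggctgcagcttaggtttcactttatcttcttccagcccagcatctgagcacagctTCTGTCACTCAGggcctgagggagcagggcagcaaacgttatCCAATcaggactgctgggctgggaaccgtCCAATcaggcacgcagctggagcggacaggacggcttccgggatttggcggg
ZNF680, chr7:64563072-64563271, minus strand: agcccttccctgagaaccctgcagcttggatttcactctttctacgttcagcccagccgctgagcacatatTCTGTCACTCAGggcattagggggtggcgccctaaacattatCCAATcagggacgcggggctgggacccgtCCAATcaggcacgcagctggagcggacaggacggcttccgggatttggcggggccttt

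All 5 hold the 12-letter stretch followed by 2 CCAAT boxes in the same order. The promoter of ZNF528, a chromosome 19 gene marked down that lies outside the stretch, is shown for contrast and holds none of these letters in this window. The fall of ZNF528 depends on the scaling, as given below. This promoter does not stand for all genes marked down. In the longer windows described below, 4 of 8 such genes held at least 1 CCAAT.
ZNF528, chr19:52397649-52397848, plus strand: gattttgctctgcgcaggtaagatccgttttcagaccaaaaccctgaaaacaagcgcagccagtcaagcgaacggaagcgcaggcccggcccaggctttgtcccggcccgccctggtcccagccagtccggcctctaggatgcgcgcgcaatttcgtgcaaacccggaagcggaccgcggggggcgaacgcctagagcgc

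Promoter windows of 300 bases (250 before the start and 50 after) were found for 27 of the 30 genes. Of the 13 genes in the 2 stretches, 11 had a window at least 75% identical to that of another, and among those 11 the 55 pairs shared 77% to 88.3% of bases, with a median of 81%. Identity was counted as identical bases of an end-to-end alignment over 300. For a gene with several windows the pair with the highest identity was taken. On this measure other windows also score high: the median of zinc finger genes without a row, set against ZNF486, was 59.8%. Searched on both strands, with overlapping matches counted, CCAAT occurred at least 2 times in 12 of the 13 genes of the stretches (92.3%), in 3 of 6 other zinc finger genes marked up, in 1 of 8 marked down, and in 12.9% of the 27305 genes with a window. At least 1 CCAAT occurred in 13 of the 13, in 5 of those 6, in 4 of those 8 and in 39.7% of all genes. The 12-letter stretch occurred in 10 of the 13 (76.9%), in 0 of those 6 and 0 of those 8, and in 0.0989% of all genes. It overlaps no CCAAT. Of the 27 genes that hold it, 22 have a zinc finger symbol, and 10 have a row. The holders without a row, such as ZNF66, ZNF91 and ZNF208, have no value here. These letters are therefore not shown to be particular to genes that rose. A match is a description of the letters and not a site of binding.

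Promoter likeness was then set beside direction, as a description with no test. Of 510 zinc finger genes with a window other than ZNF486 itself, 28 were at least 75% identical to ZNF486. A row exists for 10 of these 28 (35.7%), and all 10 were marked up. Below 75% identity, 16 of 482 genes have a row (3.32%), 8 marked up and 8 down. These genes share ancestry and position, so they are not independent of each other. The 75% limit and ZNF486 as the reference were chosen after the likeness was seen. Of the genes with a row, ZNF492 and ZNF680, both at 80%, were nearest to the limit from inside, and ZNF682 at 69.3% and ZNF727 at 68% were nearest from outside.

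**Figure D2:**
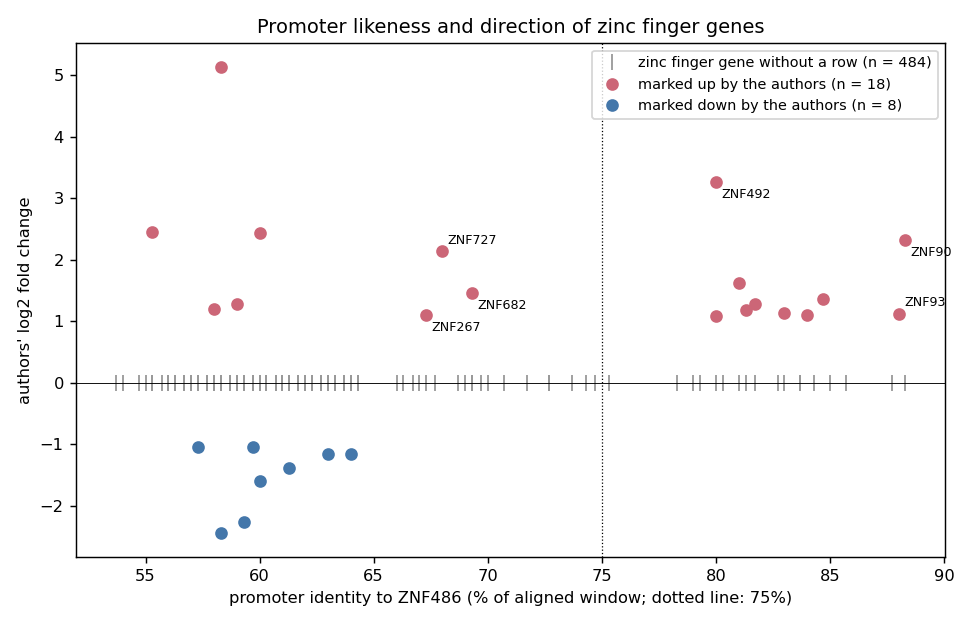
Percent identity of each zinc finger gene's promoter window to that of ZNF486 (horizontal) against the log2 fold change in the authors' deposited table (vertical). Right of the dotted line at 75%, all 10 genes with a row lie above 0; left of it 8 lie above and 8 below, and grey ticks are the 484 genes without a row.

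Values are the authors' normalized expression values, whose scaling by gene length is not stated, so levels are compared between libraries and not between genes. Group means of the 30 genes ran from 0.01 (ZNF711) to 67.7 (ZSCAN31) in shControl and from 0.127 (ZNF727) to 67.5 (ZNF385A) in shCREPT. In 16 of the 30 the higher group mean was below 5. After a filter (3 or more libraries at 1 or above) 22 were left to be tested, 20 ZNF genes and ZBTB32 and ZSCAN31. ZNF90 and ZNF846 passed it through their higher group alone, so a difference in them was built in. ZNF486, ZNF682 and ZNF485 would not have passed on their shControl libraries, so the filter favoured a rise in them. Changes below are differences of log2(value + 1), shCREPT minus shControl, with the standard error (SE) from limma fitted over all 1184 tested genes. Adjusted p-values are Benjamini-Hochberg over those genes, with a threshold of 0.05.

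Of the 22 tested genes 13 rose, 7 fell and 2 did not pass. Over all tested genes 97.9% passed, 40.6% higher and 57.3% lower, so the count that passed is at the level of the table. Among the 20 tested ZNF genes 12 rose and 6 fell, with a median log2 change of 0.66, beside −0.76 over all tested genes. The change was a rise of 1 or more on the log2 scale in 7 (25.8% of all tested genes) and a fall of 1 or more in 4 (35.9%). Groups of libraries did not overlap in 19 of the 22, beside 96.8% of tested genes, or in 26 of the 30, beside 93.3% of all listed genes. Median-of-ratios rescaling, which moved the median of all tested genes from −0.76 to −0.12, gave 15 rises and 3 falls of the 22, and quantile normalization 14 and 6. The median-of-ratios step divided shControl libraries by 1.377 to 1.383 and shCREPT libraries by 0.7413 to 0.7543, so it moved every gene toward a rise, and quantile normalization also moved each of the 22 upward. That the 13 rises were called under both scalings therefore follows from the scaling and adds no support. Falls that lost their call are named below.

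**Figure D3:**
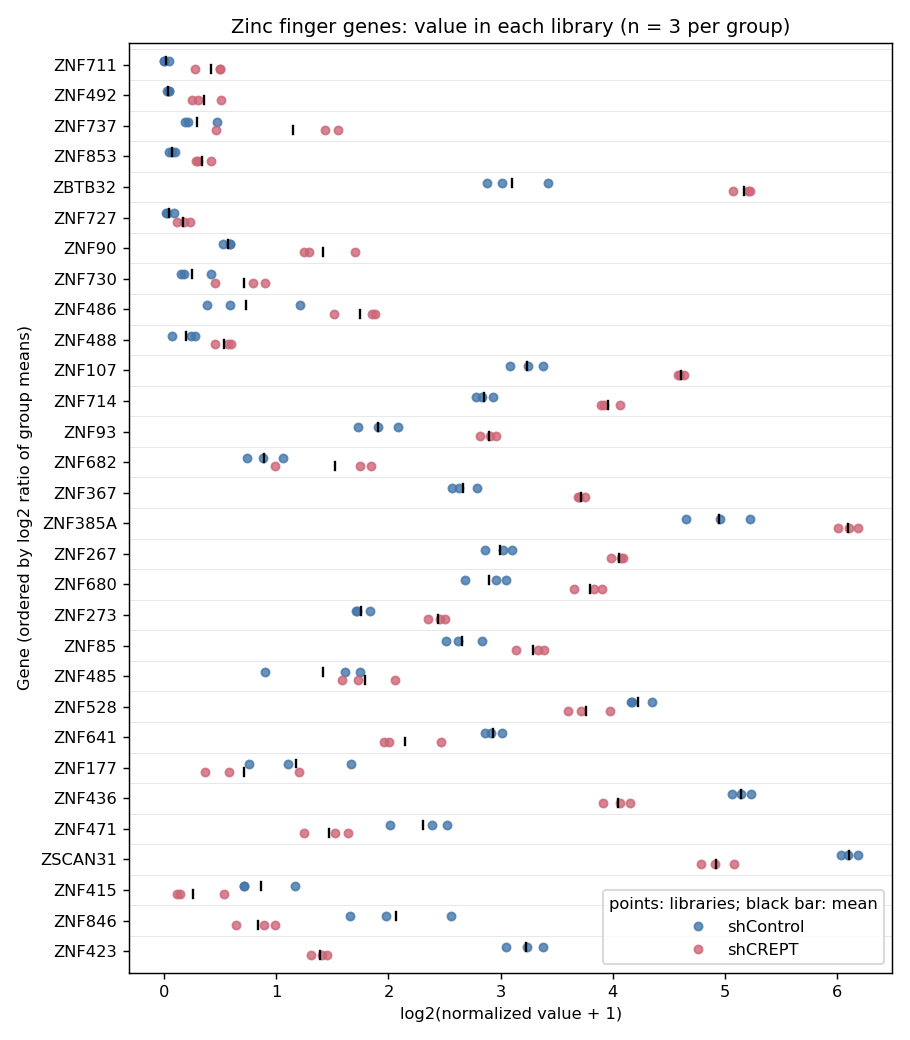
Value of each of the 30 zinc finger genes in each library, as log2(normalized value + 1), ordered by the log2 ratio of group means. Points are libraries (3 per group) and black bars are means of the plotted log2 values; ZNF711 and ZNF492 are at the top and ZNF423 at the bottom, and 4 genes (ZNF737, ZNF682, ZNF485 and ZNF177) have groups that overlap.

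In the chromosome 19 stretch, 6 of the 9 genes were tested and all 6 rose. ZNF714 had values of 6.14, 6.63 and 5.86 in shControl and of 14.11, 15.73 and 13.89 in shCREPT, a mean 2.35-fold higher; on the log2 scale it rose by 1.11 ± 0.09 (limma adjusted p = 3.49e-05). Its groups stood well apart. ZNF93, a repressor of LINE-1 retrotransposons, went from 3.23, 2.31 and 2.76 to 6.78, 6.04 and 6.5, a log2 change of 0.99 ± 0.11 (limma adjusted p = 0.000155). ZNF85 went from 6.15, 5.16 and 4.69 to 7.81, 9.1 and 9.45, a smaller change of 0.63 ± 0.12 (limma adjusted p = 0.0019) with no overlap.

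The other 3 tested genes of that stretch had low values. ZNF486 had 0.3, 0.5 and 1.32 in shControl and 2.62, 2.67 and 1.85 in shCREPT (log2 change 1.02 ± 0.23, limma adjusted p = 0.00419), its control replicate 3 lying nearest to the shCREPT values. Neither ZNF486 nor ZNF682 would have passed the filter on its shControl libraries, so the filter favoured a rise in both. ZNF90 had 0.44, 0.5 and 0.5 against 2.26, 1.38 and 1.45 (0.85 ± 0.14, limma adjusted p = 0.000803). It passed the filter through its shCREPT libraries alone, so a difference in it was built in. ZNF682 had 0.67, 1.08 and 0.84 against 2.36, 0.98 and 2.58, so its second shCREPT library fell among the controls. Its log2 change was 0.63 ± 0.24 (limma adjusted p = 0.035), and the call was lost with the replicate number as a block (adjusted p = 0.0597) and without shControl replicate 1 (0.0955), shControl replicate 3 (0.0775), shCREPT replicate 1 (0.106) or shCREPT replicate 3 (0.107). The 3 genes of the stretch below the filter were ZNF737, ZNF492 and ZNF730. ZNF737 had values of 0.39, 0.14 and 0.16 in shControl and of 0.38, 1.71 and 1.93 in shCREPT, so that its first shCREPT library was no higher than its first control. ZNF492 had 0.02, 0.03 and 0.03 in shControl and 0.23, 0.19 and 0.42 in shCREPT. ZNF730 had 0.13, 0.34 and 0.11 against 0.73, 0.37 and 0.87, with groups only just apart.

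In the chromosome 7 stretch 3 of the 4 genes were tested and all 3 rose. ZNF107 had the largest rise of any tested ZNF gene in this fit, from 7.47, 9.41 and 8.47 to 23.21, 23.86 and 22.93, or 2.76-fold (log2 change 1.37 ± 0.10, limma adjusted p = 2.37e-05). By ratio of group means the low genes ZNF90 (3.5-fold) and ZNF486 (3.4-fold) rose more than ZNF107. Every shCREPT value of ZNF107 was above 22 while no control reached 10. ZNF680 went from 5.41, 7.25 and 6.78 to 13.92, 13.26 and 11.57 (0.90 ± 0.13, limma adjusted p = 0.000434), and ZNF273 from 2.27, 2.57 and 2.3 to 4.12, 4.5 and 4.67 (0.68 ± 0.08, limma adjusted p = 0.000234). ZNF727 was below the filter, at 0.02, 0.06 and 0.01 against 0.17, 0.13 and 0.08.

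Genes of 1 family can share reads. Over stretches of 75 bases, 2 of the 30 genes had more than 10% of their longest coding transcript in common with transcripts of another gene: ZNF177, for 96.7%, almost all of it with the readthrough ZNF559-ZNF177, and ZNF492, for 24.8%, mostly with ZNF98. ZNF727 shared 8.28%, and the other genes of the 2 stretches at most 1.37%. The values of ZNF177 and ZNF492 are therefore uncertain. Whether the libraries keep strand is not given, and 5 genes, ZNF90 (13.7% of its exon bases), ZNF273 (8.91%), ZNF492, ZNF93 and ZNF436, have exons that overlap an exon on the other strand, whose reads may not be told apart.

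Outside the stretches 4 genes rose. ZBTB32, a BTB zinc finger repressor known from lymphocytes, had the largest rise of the tested zinc finger genes in this fit. Its values were 6.33, 9.74 and 7.07 in shControl and 32.6, 36.44 and 35.79 in shCREPT, a 4.53-fold rise (log2 change 2.06 ± 0.15, limma adjusted p = 2.6e-05). The lowest shCREPT value was more than 3 times the highest control. Its promoter (chromosome 19, shown because it is the 1 promoter among the 27 with the E-box CACGTG, the palindrome bound by MYC-type factors, in capitals) holds letters that occur in 8.77% of all genes' windows.
ZBTB32, chr19:35704358-35704557, plus strand: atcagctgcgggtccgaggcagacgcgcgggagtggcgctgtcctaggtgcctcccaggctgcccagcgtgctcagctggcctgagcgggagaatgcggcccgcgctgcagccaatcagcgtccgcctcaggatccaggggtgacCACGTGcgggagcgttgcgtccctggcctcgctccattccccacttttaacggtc

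ZNF385A, a zinc finger protein that binds p53 and steers it to cell cycle arrest genes, went from 24.17, 30.06 and 36.42 to 71.57, 67.82 and 63.11 (log2 change 1.15 ± 0.15, limma adjusted p = 0.000344). Its control libraries were spread over a wider range than its shCREPT libraries, with no overlap. ZNF267, a KRAB gene, went from 6.26, 7.13 and 7.56 to 14.86, 15.87 and 16.05 (1.06 ± 0.09, limma adjusted p = 4.85e-05). ZNF367 went from 5.18, 4.92 and 5.91 to 11.99, 11.92 and 12.48 (1.05 ± 0.09, limma adjusted p = 4.14e-05). In both the libraries of a group lay close together. ZNF485 did not pass: it had 0.86, 2.36 and 2.05 in shControl and 3.16, 2.0 and 2.31 in shCREPT, groups that overlap (0.37 ± 0.25, limma adjusted p = 0.179). It passed under median-of-ratios rescaling (adjusted p = 0.00728) and quantile normalization (0.0338); over all alternatives its adjusted p ran from 0.00728 to 0.525.

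Of the 8 genes marked up outside the stretches, 3 lay below the filter. ZNF711, an X-linked gene whose loss causes intellectual disability, was listed at 0, 0 and 0.03 in shControl and at 0.21, 0.41 and 0.41 in shCREPT. ZNF488, a partner of OLIG2 in oligodendrocyte development, had 0.05, 0.21 and 0.18 against 0.51, 0.37 and 0.48, and ZNF853 had 0.05, 0.03 and 0.07 against 0.23, 0.22 and 0.34. Groups did not overlap in any of these 3, but every value was under 1, and the depth behind them is unknown.

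The falls were led by ZNF423, a cofactor of BMP signalling and of EBF factors in neural and fat cell development. It had values of 9.41, 7.28 and 8.43 in shControl and of 1.73, 1.66 and 1.48 in shCREPT, a level 5.16-fold lower (log2 change −1.83 ± 0.11, limma adjusted p = 1.34e-05). ZSCAN31, a SCAN-domain gene on chromosome 6, went from 64.36, 71.64 and 67.22 to 26.52, 32.72 and 29.01, a level 2.30-fold lower (−1.18 ± 0.10, limma adjusted p = 4.71e-05). ZNF846 went from 2.94, 4.89 and 2.15 to 0.56, 0.99 and 0.85 (−1.22 ± 0.23, limma adjusted p = 0.00202). The falls of these 3 kept their call under both scalings, at −1.15, −0.31 and −0.69 after median-of-ratios rescaling. ZNF846 passed the filter through its shControl libraries alone, so its kept call adds no support.

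The other 4 falls did not keep their call under median-of-ratios rescaling. Under quantile normalization ZNF436, ZNF471 and ZNF641 kept theirs (limma adjusted p = 0.000165, 0.0179 and 0.00643), and ZNF528 did not (0.0609). Which scaling is right for rows all chosen for a difference was not tested. ZNF436 went from 32.33, 36.59 and 34.24 to 14.09, 16.74 and 15.71, a level 2.22-fold lower (log2 change −1.10 ± 0.10, limma adjusted p = 4.85e-05), with a change of −0.25 (adjusted p = 0.0583) after median-of-ratios rescaling. ZNF471 went from 4.75, 4.22 and 3.05 to 1.37, 2.11 and 1.88 (−0.84 ± 0.17, limma adjusted p = 0.00232), with −0.20 (0.304) after it. ZNF641 went from 7.07, 6.55 and 6.26 to 4.54, 3.01 and 2.89 (−0.79 ± 0.15, limma adjusted p = 0.00202), with −0.06 (0.74) after it. In all 3 the groups did not overlap in the listed values. ZNF528 went from 17.02, 16.89 and 19.42 to 12.1, 11.13 and 14.76 (−0.46 ± 0.12, limma adjusted p = 0.00871). It stood at 0.36 (adjusted p = 0.0329) after rescaling, its fall being smaller than the shift that this rescaling gave it. ZNF177 did not pass, with 1.15, 0.69 and 2.17 against 1.3, 0.29 and 0.49 (−0.46 ± 0.30, limma adjusted p = 0.168); without shCREPT replicate 1, the library among the controls, it passed at −0.70 (adjusted p = 0.0483; 0.0483 to 0.862 over its alternatives). ZNF415, below the filter, had 0.64, 1.25 and 0.64 against 0.1, 0.45 and 0.08.

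**Figure D4:**
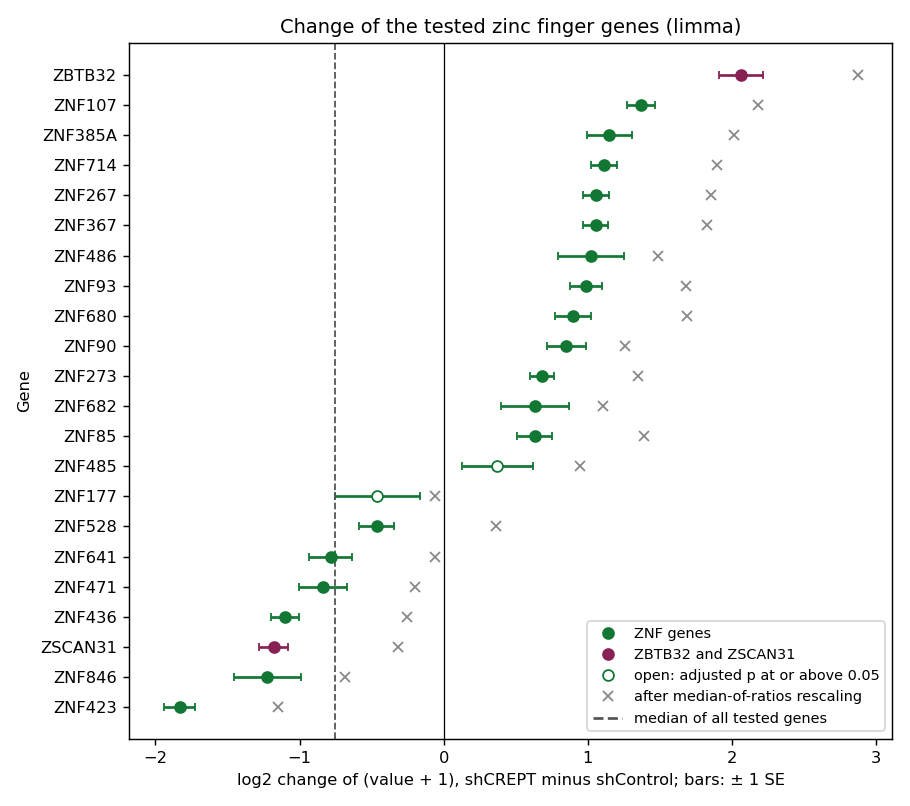
Log2 change of value + 1 (shCREPT minus shControl) for the 22 tested zinc finger genes, with bars of 1 SE from limma; open points missed the threshold. Grey crosses are the same changes after median-of-ratios rescaling, which lie to the right of every point and take ZNF528 across 0; the dashed line is the median of all tested genes, −0.76.

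Set beside the fold change of the authors' deposited table, the log2 ratio of group means was off by more than 0.5 in 4 of the 30 genes (13.3%), beside 11.1% of the 1582 listed genes with both means above 0. For ZNF528 the ratio of means was −0.49 and the authors' deposited table gives −1.04. For ZNF485 they were 0.50 and, in the authors' deposited table, 1.29. ZNF737 had a ratio of 2.54 against 1.36 in the authors' deposited table, and ZNF90 1.82 against 2.33. The sign was the same in all 30. How the fold was computed was not given in the sources used here.

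**Figure D5:**
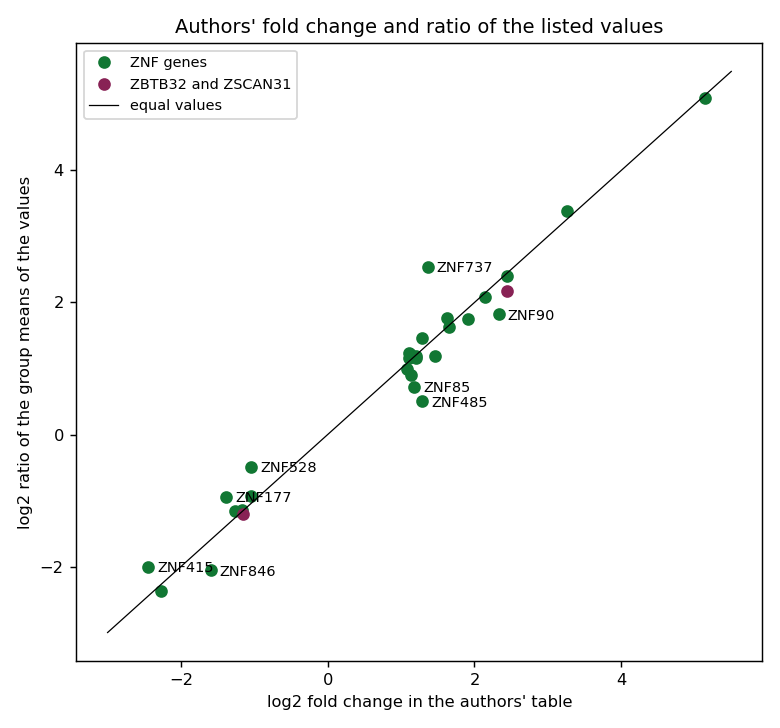
Log2 ratio of the group means of the listed values (vertical) against the log2 fold change in the authors' deposited table (horizontal) for the 30 zinc finger genes. Most points lie near the line of equal values; ZNF737 lies furthest above it and ZNF485 furthest below.

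A list of genes tied to repression by KRAB and BTB factors or to DNA methylation gave a single row. Of 26 genes, among them TRIM28, SETDB1 and the HP1 genes, 25 have no row and were not analysed here. The 1 listed is UHRF1, which keeps DNA methylation through replication, and it rose from 34.87, 37.42 and 36.03 to 82.54, 83.57 and 86.55, or 2.33-fold (log2 change 1.20 ± 0.07, limma adjusted p = 1.55e-05). A link of this rise to KRAB or BTB repression was not tested.

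Of 107 zinc finger factors with other names 15 have a row, and the authors' deposited table marks 6 up and 9 down, close to the 40.3% up and 59.7% down of all listed genes. Of the 10 tested, 3 rose and 6 fell, beside 40.6% higher and 57.3% lower over all tested genes. SP8, a developmental factor of forebrain and limb, rose from 35.04, 35.88 and 44.06 to 91.69, 86.48 and 76.12. SALL1 rose from 10.08, 9.8 and 13.41 to 25.85, 28.17 and 23.48, and PLAGL2 from 9.61, 8.65 and 10.06 to 20.47, 17.98 and 18.0. Groups did not overlap in these 3.

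BCL6, a BTB zinc finger repressor of germinal centre B cells, fell from 56.85, 54.3 and 57.49 to 25.29, 25.27 and 22.38. PRDM16, known for its part in brown fat, fell from 1.82, 1.24 and 2.47 to 0.18, 0.44 and 0.59. Both kept their call under both scalings. PRDM16 passed the filter through its shControl libraries alone, so a difference in it was built in and its call adds no support. The growth response factor EGR1, the mesenchymal factor SNAI2, the forebrain factor FEZF1 and the cerebellar factor ZIC4 also fell, with log2 changes of −1.10, −1.03, −0.70 and −0.68. These 4 calls were lost under median-of-ratios rescaling (−0.34, −0.21, −0.14 and −0.08) and kept under quantile normalization. CASZ1 had 2.25, 1.27 and 4.86 against 3.74, 5.76 and 4.46 and did not pass (limma adjusted p = 0.0952), but passed as a rise under median-of-ratios rescaling (1.33, adjusted p = 0.00754) and quantile normalization (0.86, adjusted p = 0.0462). BCL11A and OSR1 are up, and KLF8, SALL2 and SP6 down, in the authors' deposited table, all below the filter.

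Summed over all listed genes, a library held 31893.69 to 33330.8 units, of which the 30 zinc finger genes took 0.663 to 0.74% in shControl and 0.836 to 0.866% in shCREPT. The glial markers GFAP, S100B and SLC1A3 have a row, and AQP4 and ALDH1L1 do not. The 3 fell in shCREPT, SLC1A3 losing its call under median-of-ratios rescaling (adjusted p = 0.23). S100B passed the filter through its shControl libraries alone, so a difference in it was built in. GFAP went from 434 ± 13.5 to 45.5 ± 3.75 (SD, n = 3). CDH5 and KDR (endothelial), KRT19 (epithelial), COL1A2 (fibroblast) and NEFL (neuronal) fell and CLDN4 (epithelial) rose, KDR losing its call under that rescaling (adjusted p = 0.123). KRT19 would not have passed the filter on its shCREPT libraries, so the filter favoured a fall in it. None of 5 myeloid and 3 T cell markers has a row, which does not tell whether they are expressed. The part of these changes in the zinc finger genes was not tested.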

How the data were processed

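Total RNA of 6 libraries, 3 per group, was measured by RNA-seq. The submitters' processing notes name HISAT2, HTSeq and GRCh38, with no version or role. The deposited table lists 1630 genes with a signal value per library, which the authors normalized in a way not given in the sources used here; per the file headers, the authors also gave a fold change (ratio) and its log2. A raw and an adjusted p-value of the authors' own test are in the deposited table too. Depth is unknown, low values showed no unit worth 1 read (28 to 29 of the hundredths below 0.3 occurred in each library), and no count test was run. Any pair of libraries differed in at least 96% of genes.

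Zinc finger genes were taken by symbol. These genes, the gene lists and the tests were chosen with earlier results of these data known. Genes at 1 or above in 3 or more libraries entered a limma 3.58.1 fit (R 4.3.3) of log2(value + 1), with Benjamini-Hochberg adjustment over 1184 genes and a threshold of 0.05; the step was tested on simulated data. A change on this scale understates that of low genes. An exact permutation test of 3 against 3 cannot go below a two-sided p of 0.1. The rule for named genes was every tested gene outside ZNF and the 8 largest rises and 8 largest falls among ZNF genes past the threshold with a higher-group mean of at least 2, plus the list genes that passed; values of the remaining zinc finger genes were added after they were seen. Coordinates came from GENCODE release 29 on GRCh38 (30 of 30 genes matched) and promoters from RefSeq on GRCh38.p14 (27 of 30). Alternatives were other pseudocounts, filters, scalings and limma options, a replicate block, and each library left out in turn. Python 3.11.15 was used for the rest.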

Additional observations from a re-analysis of the deposited data

How the results depend on the processing

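Over the 22 tested genes and their alternatives, 283 of 296 pairs of gene and setting kept direction and call, and 15 genes kept both in each setting that tested them. The exceptions were ZNF436, ZNF471 and ZNF641 (call lost) and ZNF528 (turned to 0.364) under median-of-ratios rescaling, ZNF528 under quantile normalization (−0.261, call lost), ZNF485 under both (call gained), ZNF682 and ZNF177. The median log2 change of ZNF genes was 0.93 with a pseudocount of 0.1, 0.32 with 5, 0.437 with no filter, 1.056 with a minimum of 10, 1.303 after median-of-ratios rescaling and 0.881 after quantile normalization, and that of ZBTB32 and ZSCAN31 was 1.279 after median-of-ratios rescaling. By construction a pseudocount shrinks low genes and median-of-ratios rescaling moves every gene toward a rise; the cause of the other shifts was not tested. With the minimum of 10, which leaves 10 zinc finger genes, 7 rose and 3 fell (ZNF genes 6 and 2). Median-of-ratios rescaling left 3 falls, 2 of them ZNF genes. Leaving out 1 library at a time gave medians of 0.617 to 0.777 for ZNF genes. Libraries with the same number showed no shared deviation (r = −0.109, 0.018 and −0.179). The fit with the replicate block called 12 rises and 7 falls (ZNF genes 11 and 6) and changed no call but that of ZNF682. Depth is unknown and sets no bound.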
